A study of Mus musculus with 4 samples.

Results

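The 10 genes described here, *Clock*, *Arntl*, *Per1*, *Per2*, *Per3*, *Cry1*, *Cry2*, *Nr1d1*, *Nr1d2* and *Dbp*, form the core of the mammalian circadian clock and one of its direct outputs. They were chosen by gene symbol among the 23337 genes of the deposited table, all 10 were found, and all 10 passed the filter on low counts that left 18547 genes for testing. To ask what loss of the deacetylase *Sirt6* does to medullary thymic epithelial cells (mTECs), the epithelial cells that display self-antigens to developing T cells, the study sequenced RNA of mTECs from the thymus of 4-week-old C57BL/6 mice, with 2 WT libraries and 2 libraries labelled Sirt6-/-. By the study's methods, the second group came from mice with both *Sirt6* alleles flanked by loxP sites and recombined by Cre under *Foxn1*, a promoter active in thymic epithelium, which directs the deletion to these cells (*Sirt6* cKO). WT mice lacked the Cre and were littermates or of matched age. Cells were sorted as CD45-EPCAM+UEA-1+Ly51-, and the methods call the 2 samples of a group independent without saying how many animals each held. The hour of day at which each thymus was taken is not given in the sources used here, and for clock genes it cannot be told apart from genotype if it differed between the groups.

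The clock is a loop of transcription and repression that runs in nearly every cell. CLOCK, or its relative NPAS2, pairs with BMAL1 (the product of *Arntl*) on E-box sequences and switches on the *Per* and *Cry* genes, whose proteins return to the nucleus and silence the same pair. A second loop runs through the nuclear receptors REV-ERBα and REV-ERBβ (*Nr1d1* and *Nr1d2*), which repress *Arntl* in competition with the ROR receptors, and outputs such as DBP carry the rhythm on to genes with D-box sequences. In mouse tissues *Dbp*, *Nr1d1* and the *Per* genes peak in opposite phase to *Arntl* and *Npas2*. In liver, SIRT6 is known to bind CLOCK:BMAL1 and to set which genes the pair reaches. Bulk levels cannot tell fewer cells of a type from less RNA per cell.

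The libraries held between 61102704 and 65907745 counts. *Sirt6* itself had 622 and 755 counts in the WT pair and 882 and 835 in the pair labelled Sirt6-/- (log2 fold change 0.37, standard error 0.32, adjusted p = 0.80 with edgeR's quasi-likelihood test), so the targeted gene was not lower and every direction below rests on the labels. Counts per gene do not show which exons were read, and whether a transcript without the deleted exons was still counted was not tested. The mTEC markers were all present. The 10 of them summed to 10333 and 10841 CPM (counts scaled to library size by the TMM method) in WT. In the libraries labelled Sirt6-/- they summed to 11162 and 11034 CPM, so these sums did not overlap. Most of each sum came from the MHC class II gene *H2-Aa* (7121 to 8227 CPM). Among these 10, 3 were higher and 1 lower at an unadjusted p under 0.05, beside 5.27% higher and 3.32% lower of all genes tested. Their log2 fold changes ran from -2.37 for *Ccl21a*, a chemokine of immature mTECs, to 0.94 for *Cd80*, a costimulatory ligand of mature mTECs. Markers of other cells, and of tuft cells, which the study places among atypical mTECs, were also present in every library. The exception was *Pax5*, which had 0 counts in one library of each group. Of the lists for other cells and tuft cells, 2 had sums that did not overlap between the groups. The 9 macrophage and dendritic cell markers summed to 5343 and 3186 CPM in WT and to 2091 and 2193 CPM in the libraries labelled Sirt6-/-. Most of that sum came from *Lyz2* (named for its share), at 4646 and 2814 CPM in WT and 1777 and 1906 CPM in the others. Of the 9, 4 were lower at an unadjusted p under 0.05 (3.32% of all genes tested), and by sign 7 were lower and 2 higher. The dendritic cell markers *Flt3*, *Itgax* and *Siglech* (named after their values were seen) overlapped between the groups. Their log2 fold changes were -0.365, -0.203 and 0.196. The 7 tuft cell markers summed to 571 and 660 CPM against 304 and 309 CPM. Of the 7, 4 were lower at an unadjusted p under 0.05, beside the same 3.32% of all genes. By sign 5 were lower and 2 higher, with log2 fold changes from -2.13 for *Rgs13* to 0.36 for *Dclk1*. The 12 thymocyte markers summed to 1522 and 1060.1 CPM against 1284.5 and 751 CPM. The part of these cells in the clock values was not tested.

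*Cry2* was the 1 clock gene of the 10 that was higher in the libraries labelled Sirt6-/- at an unadjusted p under 0.05, while 0 genes were lower. Over all genes tested, 5.27% were higher and 3.32% lower by the same rule (8.58% in either direction). After adjustment over all genes, 0 of the 10 stayed under 0.05 with edgeR, where 0.00539% of all genes did, that is 1 gene. With DESeq2, 0 of the 10 stayed under 0.05 after adjustment, beside 1.69% of all genes, and 1 of the 10 lay under 0.05 before it, beside 10.2% of all genes. The median log2 fold change of the 10 genes was 0.19, beside -0.01 over all genes. By sign 7 genes were higher and 3 lower. In 4 of the 10, *Arntl*, *Per2*, *Cry1* and *Cry2*, both libraries labelled Sirt6-/- lay above both WT libraries, beside 21.6% of all genes higher in this way and 41.9% that did not overlap in either direction. The balance of calls over all genes moved with the scaling, from 61.4% of calls higher to 48.4% under upper quartile scaling, 46.2% by library size alone and 56.9% with DESeq2.

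**Figure D1:**
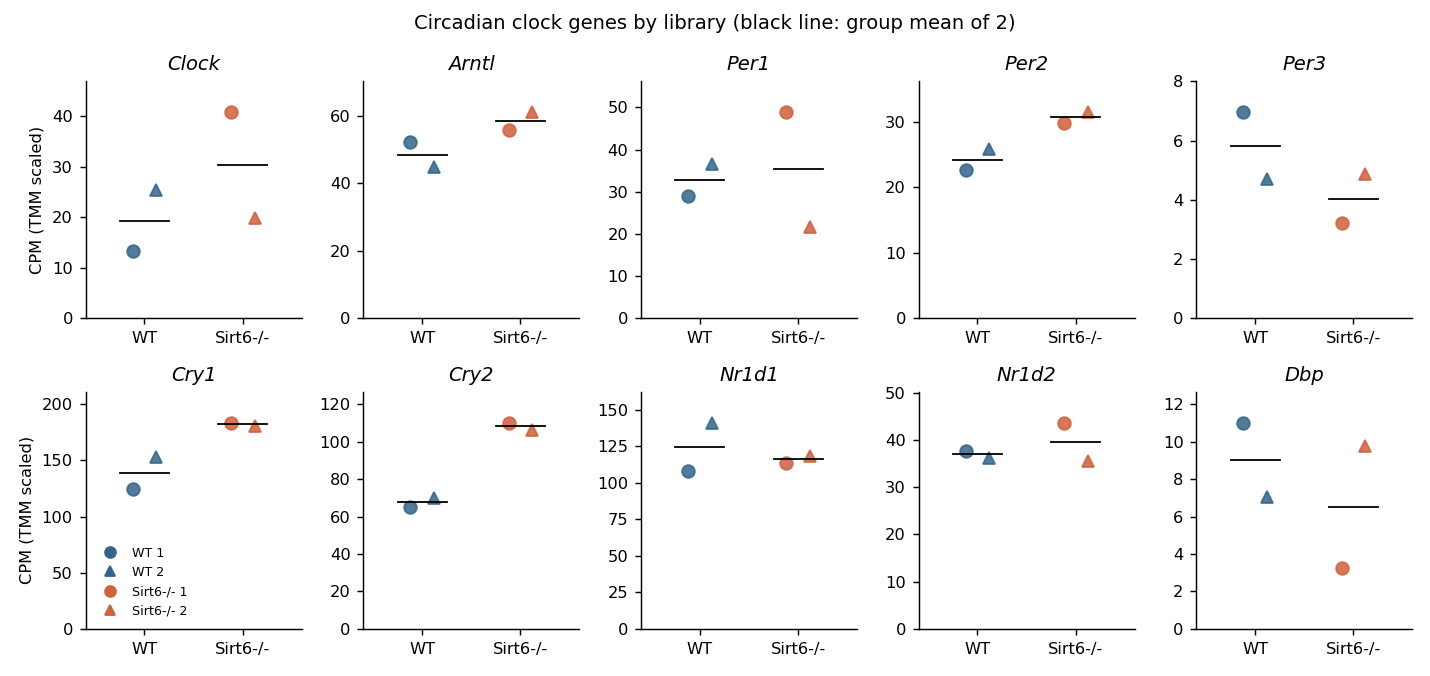
CPM of the 10 clock genes (vertical axis, from 0) in the 2 WT libraries (blue) and the 2 libraries labelled Sirt6-/- (orange), circles for replicate 1, triangles for replicate 2, and black lines for the mean of 2. *Cry2* stands clear, at 65.2 and 70.0 CPM in WT and 110.1 and 106 CPM in the others, while *Clock*, *Per1* and *Dbp* differ most, as a ratio, between the libraries labelled Sirt6-/-.

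The promoters of 4 of these genes are shown first, because they hold sequence matches to elements through which the loops act. *Cry1* and *Cry2* are paralogs whose levels are compared below, *Per3* had one of the patterns nearest to that of *Dbp*, and *Nr1d1* opens the second loop. Each is the 250 bases before the start site, 5′ to 3′, taken from RefSeq on GRCm38.p6. Capitals mark an E-box (CACGTG), an E′-box (CACGTT, which reads AACGTG on the other strand) or a D-box (TTATGTAA or TTACGTAA). *Cry1* lies at chr10:85185055-85185304, *Cry2* at chr2:92434070-92434319, *Nr1d1* at chr11:98775378-98775627 and *Per3* at chr4:151044666-151044915, all on the minus strand.
Cry1: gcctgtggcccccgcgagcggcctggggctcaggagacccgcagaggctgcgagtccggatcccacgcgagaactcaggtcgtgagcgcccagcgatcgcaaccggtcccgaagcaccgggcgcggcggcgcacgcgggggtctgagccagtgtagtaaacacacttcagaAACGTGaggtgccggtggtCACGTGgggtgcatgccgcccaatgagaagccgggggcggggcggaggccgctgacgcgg
Cry2: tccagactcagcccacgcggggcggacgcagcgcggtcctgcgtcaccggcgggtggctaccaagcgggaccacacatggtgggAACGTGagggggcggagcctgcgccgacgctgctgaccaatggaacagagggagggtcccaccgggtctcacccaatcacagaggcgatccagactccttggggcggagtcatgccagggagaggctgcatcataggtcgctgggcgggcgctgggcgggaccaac
Nr1d1: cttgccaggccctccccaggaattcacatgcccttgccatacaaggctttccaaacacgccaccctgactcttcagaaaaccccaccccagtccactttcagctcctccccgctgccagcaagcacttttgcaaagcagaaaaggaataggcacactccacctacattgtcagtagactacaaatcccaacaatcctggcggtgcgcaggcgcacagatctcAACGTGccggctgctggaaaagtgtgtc
Per3: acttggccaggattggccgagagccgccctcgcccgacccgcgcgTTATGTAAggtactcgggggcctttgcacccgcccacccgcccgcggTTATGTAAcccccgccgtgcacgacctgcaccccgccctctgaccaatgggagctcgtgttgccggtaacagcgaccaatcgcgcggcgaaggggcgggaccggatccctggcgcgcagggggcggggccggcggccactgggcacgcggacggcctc

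Counting back from the start site, the *Cry1* window held an E′-box that began at position -79 and an E-box at position -60. The *Cry2* window held an E′-box at position -166 and the *Nr1d1* window one at position -28. The *Per3* window held D-boxes at positions -205 and -158. The 9 members with a window had 13 windows among them. Counted by gene, with a match in any of its windows, 2 had an E-box (*Cry1*, and *Per1* at position -166), 3 an E′-box and 1 a D-box. Over all 32851 start-site windows the shares were 6.02% for the E-box, 3.85% for the E′-box and 0.931% for the D-box, on both strands. All such shares are per window and the member counts per gene, so they are not on the same scale. The core AGGTCA, read by ROR and REV-ERB receptors, was in a window of *Nr1d2*, *Per1* and *Clock*, and in 14.0% of all windows. The cAMP element TGACGTCA was in no member window and in 1.55% of all windows. A match is a run of letters in this window and no evidence of binding.

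The deposited TPM values, which are per transcript length, give the order of the genes. In WT, *Nr1d1* (105 ± 21.7 TPM; SD, n = 2) and *Cry1* (101 ± 16.7 TPM; SD, n = 2) were highest and overlapped each other. *Cry2* (38.5 ± 2.28 TPM; SD, n = 2) and *Arntl* (37.6 ± 2.0 TPM; SD, n = 2) followed and also overlapped. Next came *Nr1d2*, *Per1*, *Dbp* and *Per2*, from 17.5 down to 9.15 TPM, where each gene overlapped the next. *Clock* (5.72 ± 2.66 TPM; SD, n = 2) and *Per3* (2.15 ± 0.546 TPM; SD, n = 2) were lowest, so that *Arntl* stood above its partner *Clock* in every library, by 10.2-fold and 4.76-fold in WT and by 3.53-fold and 7.92-fold in the libraries labelled Sirt6-/-. In the latter, the upper 4 genes were *Cry1*, *Nr1d1*, *Cry2* and *Arntl*, and their ranges no longer overlapped. *Dbp* lay in place 9 there instead of 7, at 8.47 ± 6.08 TPM (SD, n = 2), which overlapped *Clock* above it.

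**Figure D2:**
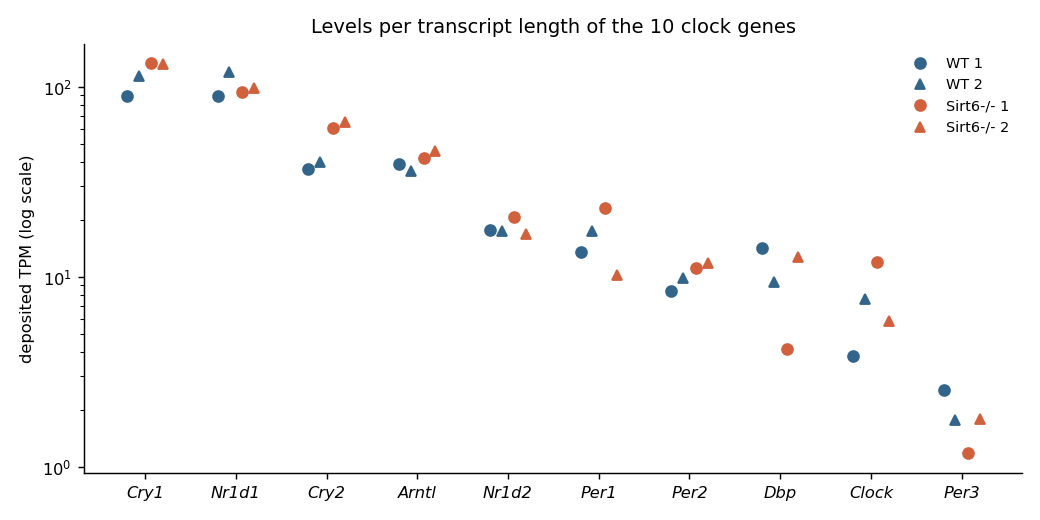
Deposited TPM (vertical log axis) of the 10 clock genes in each library, ordered by their mean over the 4 libraries, with WT in blue and the libraries labelled Sirt6-/- in orange. *Cry1* and *Nr1d1* lie between 89.2 and 133 TPM and *Per3* between 1.18 and 2.53 TPM, and the points of *Dbp* and *Clock* are spread widest.

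Of the activators, *Clock* (chromosome 5) encodes the subunit that pairs with BMAL1. Its 4 libraries, in the order WT 1, WT 2, Sirt6-/- 1 and Sirt6-/- 2, held 867, 1623, 2468 and 1274 counts. Sirt6-/- 1 was highest and WT 1 lowest, and the groups overlapped. The log2 fold change was 0.65 (standard error 0.50, 95% interval from -0.60 to 1.90, adjusted p = 0.77), and it lay at 0.04 without Sirt6-/- 1, 1.06 without Sirt6-/- 2, 0.225 without WT 1 and 1.20 without WT 2. *Arntl* (chromosome 7) was steadier, with 3414, 2853, 3368 and 3925 counts in the same order. Its CPM were 52.1 and 44.8 in the WT pair and 55.8 and 61.2 in the pair labelled Sirt6-/-, a log2 fold change of 0.27 (standard error 0.23, 95% interval from -0.30 to 0.84) that did not pass the test.

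Of the repressors, *Cry2* (chromosome 2, 92403646 to 92434043) encodes a cryptochrome that blocks the CLOCK:BMAL1 pair. It had 4271 and 4453 counts in the WT pair and 6647 and 6821 in the pair labelled Sirt6-/-. The WT mean was 67.6 ± 3.34 CPM and that of the other pair 108 ± 2.68 CPM (SD, n = 2 for each), a gap several times the spread between replicates. The log2 fold change was 0.68 (standard error 0.19, 95% interval from 0.20 to 1.16), a 1.6-fold difference, with an unadjusted p = 0.0147 and an adjusted p = 0.54 over all genes from edgeR's quasi-likelihood test. DESeq2 gave an unadjusted p = 0.00382 and an adjusted p = 0.12. The unadjusted call was lost without WT 1 (unadjusted p = 0.072), without Sirt6-/- 1 (unadjusted p = 0.0654) or without Sirt6-/- 2 (unadjusted p = 0.0587) with edgeR on the libraries left, with a lone library taken to vary like the other group, and in limma on log2(TPM + 0.1) (unadjusted p = 0.0625). Without any 1 library the log2 fold change stayed between 0.605 and 0.73. Exons of *Cry2* overlap *D930015M05Rik* on the other strand by 295 bases, 4.7% of its exon length.

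*Cry1* (chromosome 10), the other cryptochrome, had 8159 and 9745 counts in the WT pair and 11078 and 11592 in the pair labelled Sirt6-/-. The groups did not overlap, and the log2 fold change of 0.39 (standard error 0.19, 95% interval from -0.08 to 0.86, unadjusted p = 0.0872 with edgeR) did not pass the test. The ratio of *Cry1* to *Cry2* in TPM, which does not depend on scaling between libraries, was 2.43 and 2.82 in the WT pair and 2.17 and 2.01 in the pair labelled Sirt6-/-. The more abundant cryptochrome was thus *Cry1* in all 4 libraries. For such a ratio the smallest p that exact permutation of the labels allows in this design is 0.333 (two-sided).

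The period genes differed in the sign and the error of their values. *Per2* (chromosome 1), a core repressor, had 1481 and 1649 counts in the WT pair and 1807 and 2024 in the pair labelled Sirt6-/-, with a log2 fold change of 0.34 (standard error 0.26, 95% interval from -0.31 to 0.99). *Per1* (chromosome 11), which is also induced quickly by stress and hormone signals, had 1901, 2328, 2954 and 1392 counts in WT 1, WT 2, Sirt6-/- 1 and Sirt6-/- 2. The libraries labelled Sirt6-/- lay on either side of both WT libraries. The log2 fold change was 0.11 (standard error 0.44, 95% interval from -0.99 to 1.20), and it lay just below 0 (-0.002 and -0.008) in limma on TPM, at -0.59 without Sirt6-/- 1, at -0.08 without WT 1, at 0.28 without WT 2 and at 0.56 without Sirt6-/- 2. *Per3* (chromosome 4), the least abundant period gene here, had 456, 299, 194 and 312 counts in the same order, a log2 fold change of -0.53 (standard error 0.50, 95% interval from -1.79 to 0.73), which lay at -0.87 without Sirt6-/- 2, -0.26 without Sirt6-/- 1 and -0.24 without WT 1.

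Because *Per1* can respond to handling, immediate early and glucocorticoid-responsive genes were read beside it. Of 14 immediate early genes, 5 were higher in the libraries labelled Sirt6-/- at an unadjusted p under 0.05, beside 5.27% of all genes (*Fosb*, and *Jun*, *Egr1*, *Atf3* and *Zfp36*, which were named after their values were seen) and 0 were lower. Log2 fold changes ran from -1.37 for *Jund* to 1.20 for *Fosb*, with a median of 0.08. *Fosb* had its highest count, 71621, in Sirt6-/- 1, the library in which *Per1* was highest, and its lowest, 17808, in WT 1. In Sirt6-/- 2, where *Per1* was lowest with 1392 counts, *Fosb* had 43878, more than in either WT library, so the 2 genes did not share an order. Of 6 glucocorticoid-responsive genes, 1 was higher at an unadjusted p under 0.05, *Sgk1* (0.59), beside 5.27% of all genes, and 0 were lower. By sign 3 were higher and 3 lower, and *Zbtb16* had the lowest value (-0.50). The part of stress or hormone signals in the *Per1* values was not tested.

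The REV-ERB genes, with *Per1*, had the smallest log2 fold changes of the 10. *Nr1d1* (chromosome 11), a repressor of *Arntl*, had 7075 and 8984 counts in the WT pair and 6841 and 7606 in the pair labelled Sirt6-/-. Its groups overlapped, with a log2 fold change of -0.10 (standard error 0.21, 95% interval from -0.64 to 0.43) that lay at 0.10 without WT 2 and -0.31 without WT 1. Its exons overlap those of *Thra* on the other strand by 263 bases, 8.5% of its exon length, and the text of the methods does not say whether counting used strand. *Thra* had between 539 and 830 counts, and the ratio of *Nr1d1* to *Thra* in TPM was 7.56 or more in each library. *Nr1d2* (chromosome 14) had 2462, 2311, 2637 and 2277 counts in WT 1, WT 2, Sirt6-/- 1 and Sirt6-/- 2. Its log2 fold change was 0.10 (standard error 0.25, 95% interval from -0.52 to 0.72), and it lay at -0.055 without Sirt6-/- 1 and 0.225 without Sirt6-/- 2. For both genes the 95% interval lay within 1 log2 unit of 0.

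*Dbp* (chromosome 7, 45705088 to 45710203), the output gene, had the widest range of the 10 genes over the 4 libraries. WT 1 held 721 counts, WT 2 held 447, Sirt6-/- 1 held 195 and Sirt6-/- 2 held 628. The lowest library was thus 3.41-fold below the highest in CPM, and Sirt6-/- 2 lay between the WT libraries. Counting error alone gives 195 an exact Poisson 95% interval from 169 to 224 and 628 one from 580 to 679, so the gap between these replicates was larger than counting error. The log2 fold change was -0.47 (standard error 0.62, 95% interval from -2.04 to 1.10, adjusted p = 0.89). It rested on single libraries, at 0.12 without Sirt6-/- 1, -1.49 without Sirt6-/- 2, -0.13 without WT 1 and -0.76 without WT 2. Exons of *Dbp* overlap those of *Sphk2* on the other strand by 539 bases, 18.0% of its exon length. *Sphk2* had 5508 and 6252 counts in the WT pair and 8668 and 7538 in the pair labelled Sirt6-/-, more than *Dbp* in each, and the part of *Sphk2* reads in the *Dbp* counts was not tested.

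The spread between replicates differed widely among the 10 genes. In the libraries labelled Sirt6-/- the replicate gap of *Dbp* was 1.59 on the log2 CPM scale, larger than in all but 11.6% of genes tested. *Per1* (1.17) and *Clock* (1.04) were exceeded by 17.5% and 20.6% of genes. *Cry1* (0.02), *Cry2* (0.05), *Nr1d1* (0.07) and *Per2* (0.08) had gaps that 88.5% or more of the genes exceeded, against a median gap of 0.41 over all genes. In WT the widest gap was that of *Clock* (0.94). Few of these genes share sequence that could blur their counts: 6.00% of the 50-base words of the longest *Nr1d2* transcript also occur in another annotated gene, *AC170187.1*, and the share was 0.10% for *Cry2* and 0% for the other members.

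Since the hour of harvest is not given, genes of opposite daily phase were compared within each library. For *Dbp*, *Nr1d1*, *Nr1d2*, *Per3* and *Tef*, the mean log2 CPM, centred on the 4 libraries, was 0.24 in WT 1, 0.08 in WT 2, -0.38 in Sirt6-/- 1 and 0.06 in Sirt6-/- 2. For *Arntl*, *Npas2* and *Clock*, it was -0.42, -0.11, 0.42 and 0.10 in the same order. The first mean minus the second was thus 0.66 and 0.18 in the WT pair and -0.80 and -0.04 in the pair labelled Sirt6-/-, so the groups did not overlap. Of all genes tested, 41.9% did not overlap either, and the smallest p that exact permutation of the labels allows in this design is 0.333 (two-sided). The sets were also chosen with earlier results of these data known. The difference between group means was -0.84, with a pooled SD between replicates of 0.45, and Sirt6-/- 1 stood farthest from the rest. The difference was -0.51 when *Per1*, *Per2* and *Ciart* joined the first set and *Nfil3* the second. Without Sirt6-/- 1 the difference was -0.46, without Sirt6-/- 2 it was -1.22 and without WT 1 it was -0.60. The genes within a set did not move alike. *Nr1d1* was highest in WT 2 and *Nr1d2* in Sirt6-/- 1, where *Dbp* was lowest. In the second set, the centred value of *Clock* was 0.84 in Sirt6-/- 1 and -0.20 in Sirt6-/- 2. Those of *Arntl* were 0.07 and 0.20, and those of *Npas2* were 0.35 and 0.31, in the same order. In TPM, the ratio of *Dbp* to *Arntl* was 0.365 and 0.258 in the WT pair and 0.0992 and 0.277 in the pair labelled Sirt6-/-, which overlapped. The ratio of *Nr1d1* to *Arntl* was 2.29 and 3.31 against 2.23 and 2.15. Genotype and harvest time cannot be told apart in these values.

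**Figure D3:**
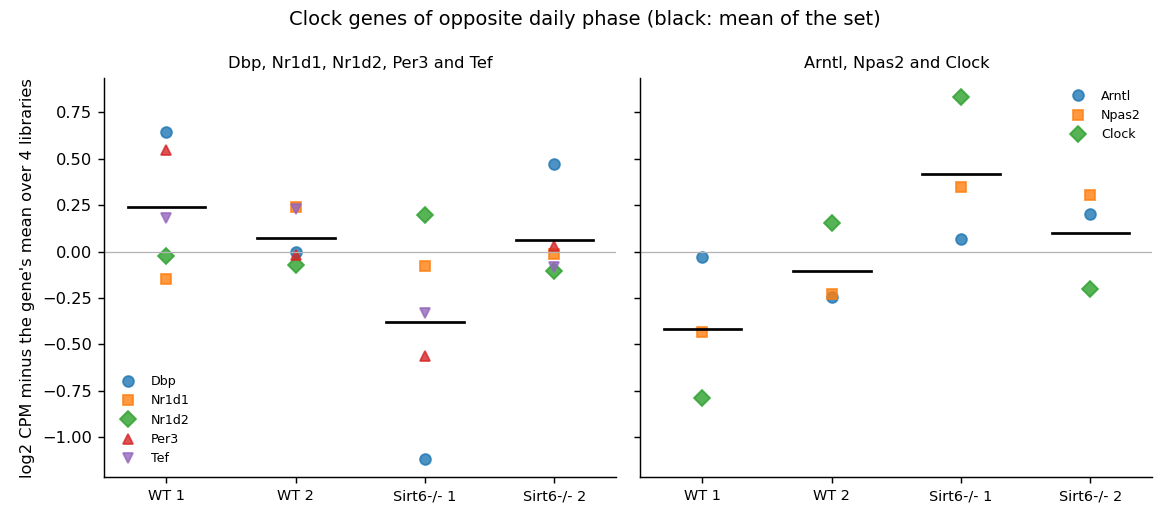
Log2 CPM of each gene minus its mean over the 4 libraries (vertical axis) for *Dbp*, *Nr1d1*, *Nr1d2*, *Per3* and *Tef* (left) and for *Arntl*, *Npas2* and *Clock* (right), in each library, with black lines for the mean of the set. The left set is lowest (-0.38) and the right set highest (0.42) in Sirt6-/- 1, and the 5 genes on the left spread widely around their mean there.

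Over the 4 libraries, the pattern of *Dbp* was nearest to those of *Rorb*, *Per3* and *Bhlhe41*, at Euclidean distances of 0.65, 0.72 and 0.80 in centred log2 CPM, where the median distance to 49 other clock genes was 1.41. Counts were low for *Rorb* (85 to 182) and *Bhlhe41* (37 to 126), so their patterns carry more counting error. *Per3* and *Rorb* shared the low value in Sirt6-/- 1, as did *Klf9* (named after its values were seen), a zinc finger factor with a daily rhythm, with 5220, 3431, 1981 and 5449 counts in WT 1, WT 2, Sirt6-/- 1 and Sirt6-/- 2. *Arntl* was nearest to *Kdm5a*, *Tsc22d3* and *Nampt*, at distances of 0.10, 0.11 and 0.12, where its median distance was 0.56. The distance is not scaled by the spread of a gene, so genes that vary little lie close to each other. These distances rest on 4 libraries and carry no test.

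Beyond the 10 genes, a list of 40 further clock genes held 1 higher gene and 0 lower genes at an unadjusted p under 0.05, beside the 5.27% and 3.32% of all genes. By sign 19 were higher and 21 lower, with a median log2 fold change of -0.06. The higher gene was *Npas2* (chromosome 1), the relative of *Clock*, which had 2091 and 2340 counts in the WT pair and 3316 and 3422 in the pair labelled Sirt6-/-. The WT mean was 34.3 ± 3.41 CPM and that of the other pair 54.1 ± 1.13 CPM (SD, n = 2 for each). Its log2 fold change was 0.66 (standard error 0.23, 95% interval from 0.07 to 1.24, unadjusted p = 0.0338 and adjusted p = 0.55 with edgeR's quasi-likelihood test). The call was lost with library size alone (unadjusted p = 0.057), with upper quartile normalization (unadjusted p = 0.0524), with the replicate number as a block (unadjusted p = 0.0629) and with any 1 library left out (unadjusted p from 0.0563 to 0.14), each with edgeR, and in limma on log2(TPM + 0.1) (unadjusted p = 0.0861), while the log2 fold change stayed between 0.53 and 0.76 over all alternatives. *Arntl2*, the relative of *Arntl*, had 364, 493, 423 and 216 counts and a log2 fold change of -0.36 (standard error 0.53).

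Among the other repressors, *Ciart* (listed under the older symbol *Gm129*), which binds BMAL1, had the highest log2 fold change at 0.48, and *Timeless* the lowest at -0.24. Of the ROR receptor genes, activators that oppose REV-ERB, the value of *Rora* was -0.07 with a standard error of 0.36, that of *Rorb* was -0.10 with a standard error of 0.76, and neither passed the test. Of the other PAR and related bZIP factors, *Tef* had -0.41 and *Hlf* 0.30, the latter on 22 to 100 counts, and *Nfil3*, which opposes DBP on D-boxes, had 0.10.

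Among 10 kinases and ubiquitin pathway genes that set the lifetime of PER and CRY, 4 were higher and 6 lower by sign and 0 passed. *Fbxl21*, an F-box protein that acts on cryptochromes, was highest at 1.90 (standard error 1.09) on 20 and 38 counts in the WT pair and 135 and 74 in the pair labelled Sirt6-/-, with an unadjusted p = 0.136 in edgeR that became 0.0405 among genes over 0.1 TPM in every library and 0.0401 and 0.0364 in limma on log2(TPM + 1) and log2(TPM + 0.1). *Csnk1e*, which phosphorylates PER, was lowest at -0.46. Of 10 chromatin cofactors, 5 were higher and 5 lower by sign, from -0.92 for *Sirt1*, a deacetylase that acts on the clock, to 0.56 for the acetyltransferase *Ep300*. *Sirt1* was set apart by WT 2, with 3507 counts against 931 to 1620 elsewhere. Of 8 outputs, 6 were higher and 2 lower by sign, from -0.23 for *Ppara* to 0.37 for *Nampt*, which makes the NAD+ precursor that sirtuins depend on. None of these kinase, ubiquitin, chromatin and output genes passed an unadjusted p of 0.05 with edgeR's quasi-likelihood test (0 genes; smallest unadjusted p = 0.0681 for *Gsk3b*).

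**Figure D4:**
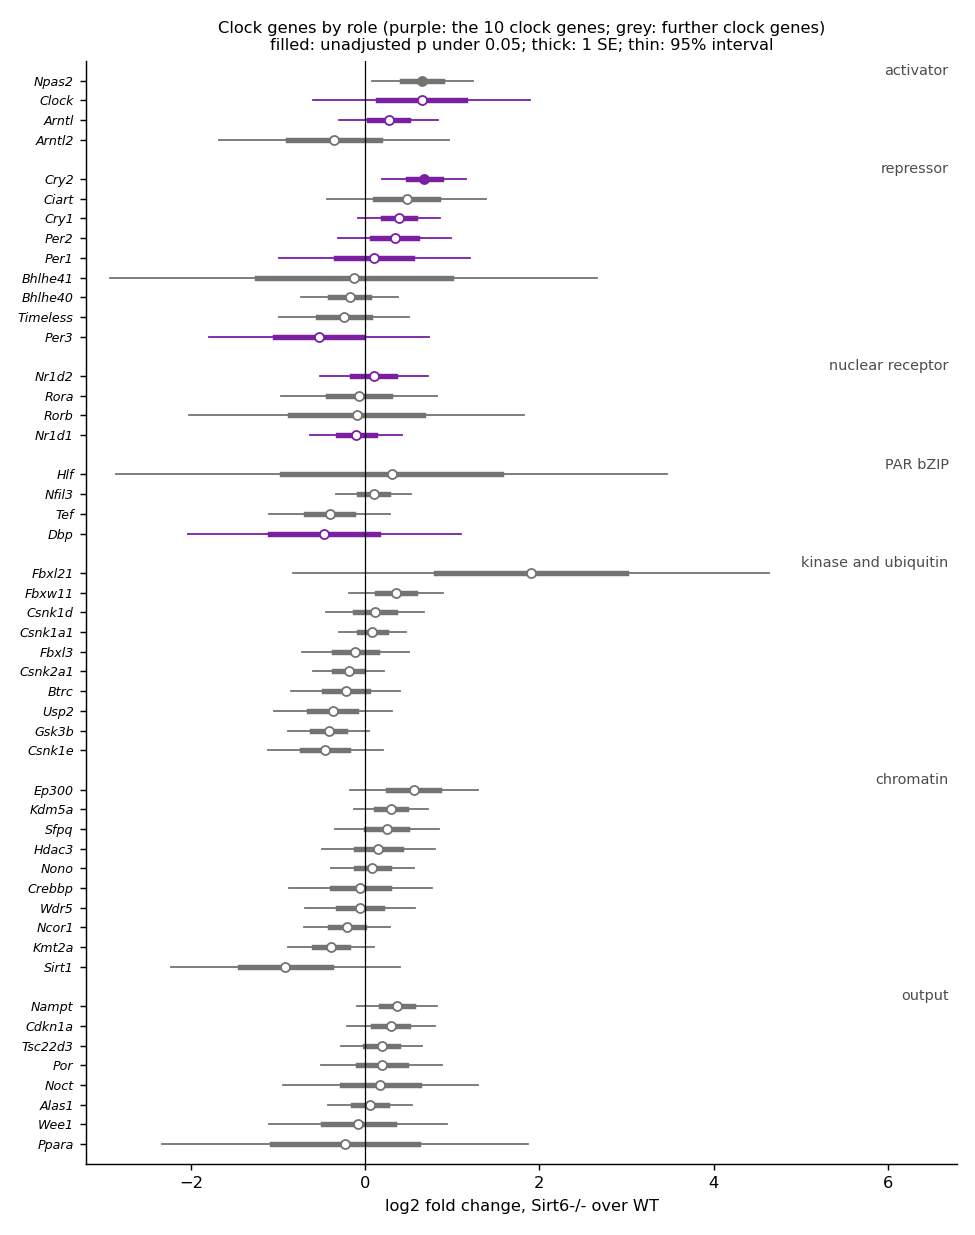
Log2 fold change of the libraries labelled Sirt6-/- over WT (horizontal axis) for the 10 clock genes (purple) and the further clock genes reported here (grey) by role, with 1 standard error as the thick bar and the 95% interval as the thin bar. Only *Cry2* (0.68) and *Npas2* (0.66) are filled, which marks an unadjusted p under 0.05 in edgeR's test, and the intervals of *Dbp* and *Per3* are among the wide ones.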

How the data were processed

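RNA-seq was compared between 2 WT and 2 Sirt6-/- libraries of sorted mTECs, grouped by the deposited labels. Per the study's methods and the submitters' processing notes, the authors aligned trimmed reads to mm10 with HISAT2 (2.1.0) and quantified genes with StringTie (1.3.3). They deposited raw gene counts in one table and TPM (a level per transcript length) in one file per library. The annotation and the strand setting are not given in the sources used here. The line of the TPM files that holds their total was left out.

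Counts were tested with edgeR (4.0.16) quasi-likelihood after TMM scaling, on genes passing filterByExpr (minimum count 10, minimum total 15), with Benjamini-Hochberg adjustment over all 18547 genes. Calls in the text use an unadjusted p under 0.05 unless said otherwise. The scripts were tested on simulated data. Libraries held 61102704 to 65907745 counts, and low counts such as those of *Fbxl21* carry more counting error. Poisson intervals cover counting error only. The methods call the samples of a group independent but do not say whether they came from separate animals. The p-values thus measure only the spread between these samples, which may be technical.

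Alternatives were DESeq2 (1.42.0), other filters and scalings, the replicate number as a block, limma (3.58.1) on log2(TPM + 1) and log2(TPM + 0.1), and leaving out each library. Leaving a library out of the comparison of opposite-phase genes was added after seeing the data. The clock genes and gene lists were chosen with earlier results of these data known. Genes named were the 10 clock genes, *Sirt6*, further clock genes with an unadjusted p under 0.05, markers at 0 and the 3 nearest patterns to *Dbp* and *Arntl*. So were the extremes of each role and of the immediate early, glucocorticoid, mTEC and tuft cell lists. Genes outside this rule carry a remark in the text. The extremes of the other marker lists are not given here. Gene positions and exon overlaps come from GENCODE on GRCm38, and promoters from RefSeq. The values of 1 gene of the wider list are not reported here.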

Additional observations from a re-analysis of the deposited data

How the results depend on the processing

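*Cry2* was the 1 clock gene of the 10 called higher in edgeR, and 0 were called in limma on log2(TPM + 0.1) and between 0 and 1 with a library left out. The log2 fold changes of *Per1* turned to -0.002 with limma and a TPM pseudocount of 1 and to -0.008 with one of 0.1. With a library left out, *Per1* ranged from -0.593 to 0.559, *Nr1d1* from -0.308 to 0.102, *Nr1d2* from -0.055 to 0.225 and *Dbp* from -1.493 to 0.121. The median of the 10 genes was 0.103 under upper quartile scaling and 0.098 by library size alone, where all genes shifted by -0.081 and -0.089, and 0.08 to 0.255 with a library left out. Of the 40 further clock genes, 2 (*Npas2* and *Fbxl21*) were higher with genes over 0.1 TPM in every library and in limma on log2(TPM + 1), 1 in limma on log2(TPM + 0.1), where it was *Fbxl21* and not *Npas2*, and 0 under upper quartile scaling, by library size alone, with the replicate block or with any library left out. A count of 1 lower gene (*Gsk3b*) came under upper quartile scaling and also by library size alone, and 0 to 1 (*Sirt1*, without WT 1) with a library left out. Over all genes, 421 to 1100 were higher and 314 to 827 lower with a library left out, the lowest counts both without Sirt6-/- 1. The difference between opposite-phase sets ranged from -1.216 to -0.46 with a library left out and was -0.508 with *Per1*, *Per2*, *Ciart* and *Nfil3* added. The cause of these changes was not tested. Samples with the same replicate number share only that number (correlation of their deviations -0.0544). With the replicate block, the unadjusted p of *Cry2* was 0.0332 and that of *Npas2* 0.0629 in edgeR. With 2 libraries a group, only large or steady differences could pass.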
